A study of Mus musculus with 6 samples.

Results

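The proteasome genes of germinal centre B cells are the subject here, compared between mice with and without a conditional deletion of Lsd1. Members are the rows of the deposited count table whose symbol starts with Psm, a letter from a to g and a digit, leaving out the immunoproteasome genes Psmb8, Psmb9 and Psmb10. The rule uses names only and found 46 of 15861 rows. Of these, 45 encode subunits, regulators or assembly chaperones of the proteasome. The remaining row, Psmc3ip, matches the pattern but encodes a homologous recombination factor, and it is counted among the members but in no role group. A filter on low counts kept 45 members, 44 of them proteasome genes. The member below it was Psma8, the alpha subunit gene of germ cells, with 1, 4 and 0 counts in WT and 3, 6 and 8 in KO.

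Polyadenylated RNA came from germinal centre B cells sorted as B220+, GL7+ and FAS+, 1 library per mouse, on a C57BL/6 background. The WT group held 3 mice with floxed Lsd1 alleles (Lsd1 f/f) and no Cre. The KO group held 3 mice with the same Lsd1 f/f alleles and 1 Cre allele that the labels name Cgamma-cre+/-. The series design speaks of littermates within each genotype. Age, immunisation and sampling time are stated in none of the sources used here. A group with the Cre allele alone was not analysed here, and what Cre does by itself cannot be told apart from the deletion. Lsd1 is the older name of Kdm1a, a histone demethylase gene.

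Proteasomes are the chambered proteases that degrade most short-lived and damaged proteins once these carry ubiquitin chains. The core particle is a stack of rings of alpha and beta subunits, and its proteolytic sites lie inside on the beta subunits encoded by Psmb5, Psmb6 and Psmb7. A regulatory particle caps the core. Its base holds a ring of ATPases that unfold and feed in substrates, and its lid removes ubiquitin. Other caps and inhibitors (the Psme genes and Psmf1) open or close the core without the ATPases, and dedicated chaperones assist assembly. Lymphocytes replace the catalytic beta subunits in part by the interferon-inducible Psmb8, Psmb9 and Psmb10, which alters the peptides offered on MHC class I.

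The libraries held 3390805 to 5524852 counts in WT and 12325300 to 14327654 in KO. The depths of the groups did not overlap, so genotype and whatever set the depth cannot be told apart. Levels below are in CPM, read counts brought to a common library total, on library sizes scaled by TMM, a method that aligns the bulk of genes between libraries. The B cell markers were present in all 6 libraries, with sums of 5904 to 9142 CPM of the library total for 6 genes. Kdm1a was read at 134, 85.2 and 92.6 CPM in WT and at 81.9, 33.0 and 21.8 CPM in KO. The library labelled KO 1 thus lay next to the lowest WT library, and by its target gene it does not clearly bear out its label. Statements on the KO group include it, and medians by role without it are given after the values of single genes. Markers of macrophages and dendritic cells summed to 366, 1530 and 2781 CPM in WT and to 304, 227 and 3641 CPM in KO, with all 15 markers present in every library.

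Short stretches before the RefSeq start sites of 4 core genes are shown because core genes had the largest median difference in the main comparison. The sequences are from RefSeq on build GRCm38.p6. Gene positions given below are from GENCODE, and by these the windows of Psmb5 and Psmb3 lie partly inside the genes. In the first pair the capitals mark TGACNNNGC, the core of the antioxidant response element through which NRF1, the product of Nfe2l1, is known to act on proteasome genes. In the second pair they mark CCAAT, the box bound by the factor NF-Y. Each line runs 5′ to 3′ on the gene's strand.
Psmb5: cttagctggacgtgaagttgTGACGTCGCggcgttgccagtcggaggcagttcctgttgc
Psmb6: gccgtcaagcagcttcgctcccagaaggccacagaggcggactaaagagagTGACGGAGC
Psmb3: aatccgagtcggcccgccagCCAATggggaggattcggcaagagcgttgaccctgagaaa
Psma7: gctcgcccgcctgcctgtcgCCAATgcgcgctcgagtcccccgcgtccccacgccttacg

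These windows lie at chr14:54618003-54618062 on the minus strand for Psmb5, chr11:70525297-70525356 on the plus strand for Psmb6, chr11:97703371-97703430 on the plus strand for Psmb3 and chr2:180042621-180042680 on the minus strand for Psma7. Promoter windows of 250 bases before to 50 bases after the start were at hand for 37 of the 45 proteasome genes and were searched on both strands. TGACNNNGC was found for 6 of these 37 genes (16.2%), against 14.0% of 27025 genes with such a window. CCAAT was found for 12 of 37 (32.4%), against 41.1% of all genes. For neither motif was the share of proteasome genes far from that of all genes. By role, CCAAT was in 5 of 7 alpha and 1 of 4 beta subunit promoters at hand, and TGACNNNGC in 0 of 7 alpha and 2 of 4 beta subunit promoters. The median difference was -0.28 on the log2 scale for the 6 genes with TGACNNNGC and -0.25 for the 31 without it, and it was -0.21 for the 12 genes with CCAAT and -0.25 for the 25 without it.

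KO was set against WT to see how loss of Lsd1 bears on transcript levels. No proteasome gene passed the test over all genes. Most lay slightly lower in KO: 38 of 45 members had a log2 fold change below 0, and the median was -0.26. Over all 10926 genes tested, 48.7% lay below 0 and the median was 0.01. By role, the median was lowest for the beta subunits of the core and highest for the activators and inhibitor. No test of a difference between roles was made. With a trend on length and GC content removed, it was lowest for assembly chaperones, at -0.26, against -0.15 for the beta subunits. The library labelled KO 1 and KO 3 had the low values and KO 2 lay close to WT. The members' median was -0.25 without KO 1, -0.15 without KO 3 and -0.15 without WT 2, the WT library with the highest mean.

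With edgeR's quasi-likelihood test, 0 of 45 members had an adjusted p under 0.05, where 9 of all 10926 genes (0.0824%) did, 8 of them higher (0.0732%) and 1 lower (0.00915%). The smallest adjusted p among the members was 0.284. DESeq2 and limma-voom called 0 members as well. The deleted gene Kdm1a, which is not a member, had a log2 fold change of -1.19 (SE 0.50). It did not pass either (edgeR adjusted p = 0.393). At an unadjusted p under 0.05, 6 members were lower and 0 higher by edgeR, which is 13.3% of the members, against 12.6% of all genes in either direction, 7.1% in the higher and 5.5% in the lower direction. DESeq2 gave 10 lower and limma-voom 6. The edgeR number depended on single libraries, being 0 without WT 3, 1 without KO 1, 1 without KO 3, 7 without WT 1, 9 without WT 2 and 12 without KO 2, with 1 member higher in each of the latter 2 fits. The share of all genes at that p moved with it, from 5.08% without WT 3 through 7.74% without KO 1, 9.05% without KO 3, 12.9% without WT 1 and 15.6% without KO 2 to 22.1% without WT 2. All 3 KO values lay below all 3 WT values for 6 of 45 members (13.3%), against 7.95% of all genes, and above them for 0 members, against 10% of all genes. Both directions together make 18% of all genes.

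**Figure D1:**
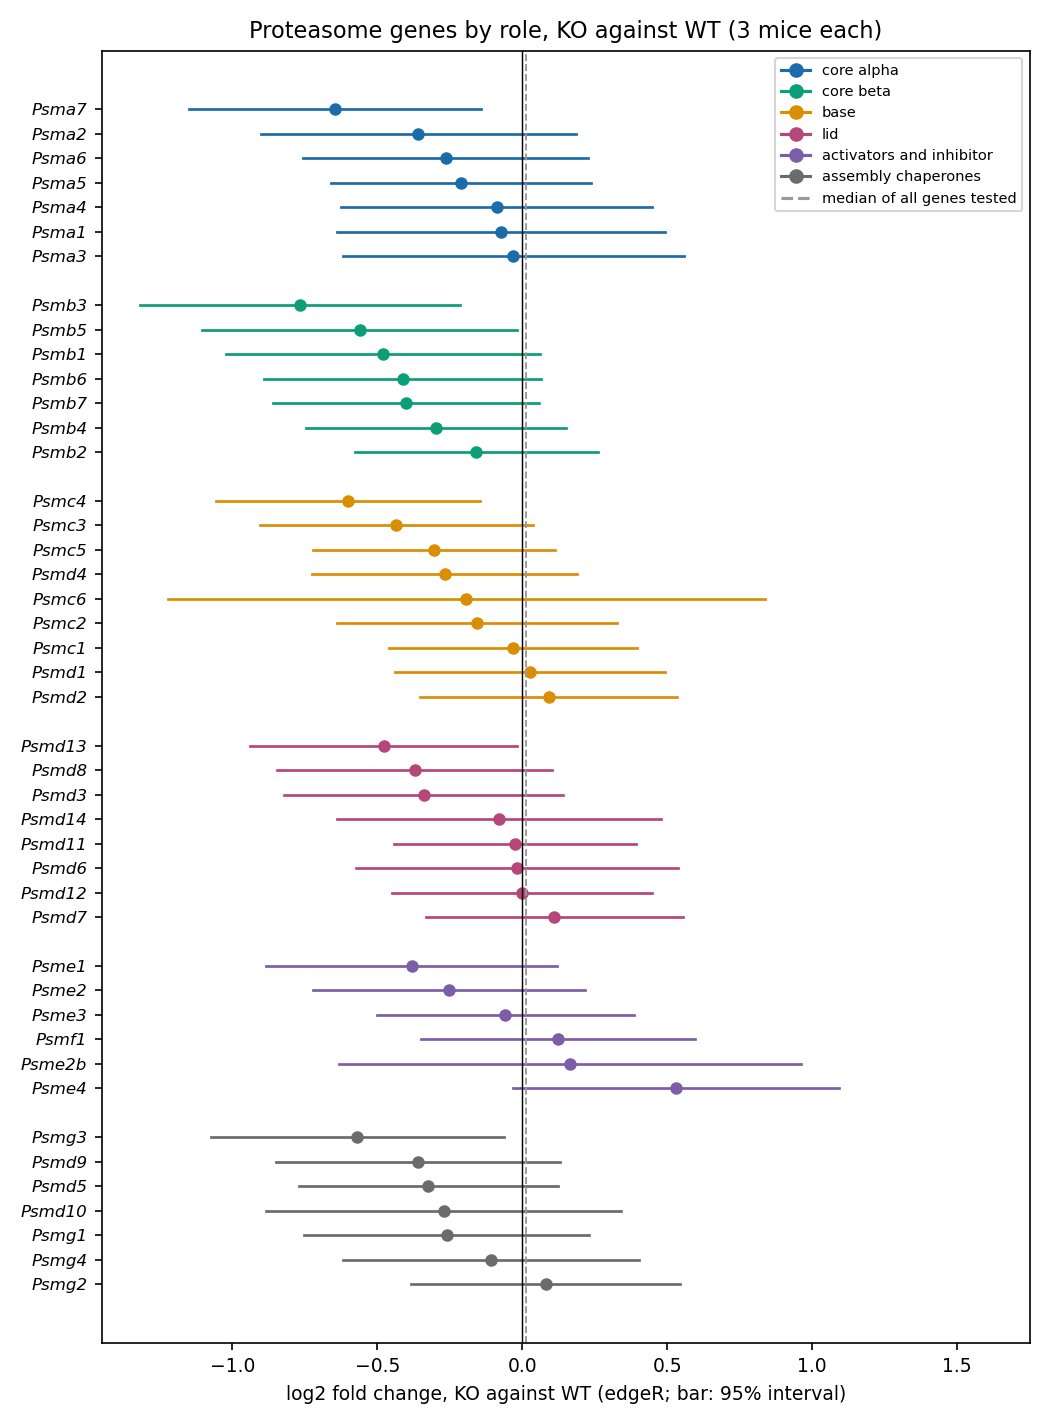
Log2 fold change of 44 proteasome genes, KO against WT (x axis; points are edgeR estimates and bars their 95% intervals), grouped by role on the y axis, with the median of all genes as a dashed line. The 14 core genes all lie left of 0, and Psme4 lies farthest right at 0.53.

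The beta ring had the lowest median of the roles, though not with a trend on length and GC content removed. All 7 tested beta subunit genes lay below 0, and their median on the log2 scale was -0.41. Psmb3, a structural subunit of that ring (chromosome 11, 97703399 to 97713500, plus strand, mm10), was read at 185, 225 and 275 CPM in WT and at 117, 180 and 105 CPM in KO. The groups did not overlap, but KO 2 lay just under WT 1. The log2 fold change was -0.77 (SE 0.25, 95% interval -1.32 to -0.21), and this lowest value among the members did not pass (edgeR adjusted p = 0.284). Of the 50-base stretches in the Psmb3 transcript, 55.8% also occur in 7 other annotated genes. The sources used here do not say how reads with several matches were treated, so its counts are uncertain.

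The 3 constitutive catalytic subunits had values of the same sign. Psmb5, the chymotrypsin-like subunit (chromosome 14, 54614119 to 54618022, minus strand), was read at 58.3, 53.0 and 67.0 CPM in WT and at 33.6, 54.3 and 32.7 CPM in KO. KO 2 fell among the WT libraries and the other KO libraries lay below all of them. The means were 59.4 ± 7.09 CPM in WT and 40.2 ± 12.2 CPM in KO (SD, n = 3 each), and the log2 fold change of -0.56 (SE 0.25) did not pass (edgeR adjusted p = 0.382). As for Psmb3, 57.1% of its 50-base stretches occur in other genes.

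Psmb6, the caspase-like subunit (chromosome 11, 70525367 to 70527858, plus strand), was read at 243, 232 and 320 CPM in WT and at 191, 239 and 168 CPM in KO. Again KO 2 alone reached the WT range. The log2 fold change of Psmb6 was -0.41 (SE 0.22, 95% interval -0.89 to 0.07). Psmb7, the trypsin-like subunit (chromosome 2, 38588036 to 38644087, minus strand), was read at 244, 330 and 266 CPM in WT and at 204, 249 and 183 CPM in KO. It shows the same order of KO libraries, with a log2 fold change of -0.40 (SE 0.21). Exons of Nek6 on the opposite strand cover 34.9% of its exonic bases, and without a known strand setting reads of both genes cannot be told apart.

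Psmb2, another structural subunit, varied least among WT mice, with 229, 218 and 223 CPM. Its KO values of 216, 212 and 172 CPM all lay below these; KO 1 and KO 2 only just did, and the log2 fold change was -0.16 (SE 0.19). Psmb4 had -0.30 and Psmb1 -0.48, with KO 2 inside the WT range for both.

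For the alpha ring, which gates the entry of the core, the median was -0.21 on the log2 scale over 7 tested genes, all below 0. Without WT 2 it was -0.07 with 4 of 7 below 0. Psma7 (chromosome 2, 180036374 to 180042433, minus strand) was read at 384, 486 and 556 CPM in WT and at 272, 385 and 254 CPM in KO. KO 2 and WT 1 were level at 385 and 384 CPM. Its log2 fold change of -0.65 (SE 0.23) did not pass (edgeR adjusted p = 0.3), and none of its 50-base stretches recurs elsewhere. At the other end, Psma3 was read at 74.3, 147 and 74.8 CPM in WT and at 96.0, 101 and 94.0 CPM in KO. All KO values lay between those of the WT mice, with a log2 fold change of -0.03 (95% interval -0.62 to 0.56). The other alpha genes ranged from -0.36 for Psma2 to -0.07 for Psma1.

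In the base of the regulatory particle, 7 of 9 genes lay below 0, with a median of -0.19. Without WT 2 it was -0.04 with 5 of 9. Psmc4, one of the ATPases (chromosome 7, 28041707 to 28050101, minus strand), was read at 317, 316 and 410 CPM in WT and at 211, 270 and 206 CPM in KO. Its groups did not overlap. The log2 fold change was -0.60 (SE 0.21, 95% interval -1.06 to -0.15; edgeR adjusted p = 0.295). The ATPase gene Psmc5 did not overlap between groups either, at 201 ± 9.06 CPM in WT and 163 ± 15.5 CPM in KO (SD, n = 3 each), with a log2 fold change of -0.30 (SE 0.19). Psmd2, the base scaffold that docks ubiquitin shuttles, had the highest log2 fold change of the base. It was read at 378, 277 and 271 CPM in WT and at 310, 343 and 334 CPM in KO. Its KO values all lay inside the WT range, and the estimate was 0.09 (95% interval -0.35 to 0.54). Psmd4, a ubiquitin receptor, had -0.27 (SE 0.21). Of the other ATPase genes, Psmc3 had -0.43, Psmc6 -0.19, Psmc2 -0.15 and Psmc1 -0.03, and the scaffold gene Psmd1 had 0.03.

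In the lid the median was -0.05, close to that of all genes, though 7 of 8 genes lay below 0. Psmd13 (chromosome 7, 140881968 to 140898643, plus strand) was read at 278, 267 and 331 CPM in WT and at 178, 256 and 195 CPM in KO. The groups did not overlap, and KO 2 again came nearest to WT. The log2 fold change of Psmd13 was -0.48 (SE 0.21, edgeR adjusted p = 0.382), and 17.2% of its exonic bases overlap exons of Sirt3 on the opposite strand. Psmd14, which encodes the deubiquitinase of the lid, had -0.08 (95% interval -0.64 to 0.48). Psmd7, the partner of that enzyme, was read at 155, 119 and 123 CPM in WT and at 158, 140 and 131 CPM in KO, for a log2 fold change of 0.11 (SE 0.20). Of the other lid genes, Psmd8 and Psmd3 had -0.37 and -0.34, and Psmd6, Psmd11 and Psmd12 lay within 0.03 of 0.

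Activators and the inhibitor were split evenly, with 3 of 6 below 0 and a median of 0.03. That sign did not hold throughout: the median was below 0 in 6 of 17 alternatives, such as -0.07 without KO 1 and -0.08 without WT 2, with 4 of 6 below 0 in both. Psme1, a subunit of the interferon-inducible activator cap, was read at 345, 444 and 521 CPM in WT and at 391, 353 and 261 CPM in KO. Only KO 3 lay outside the WT range, and the log2 fold change was -0.38 (SE 0.23). With a trend on length and GC content removed, that of Psme1 was 0.01. The partner of Psme1 is Psme2. Psme2 had -0.25 (SE 0.21), with 59.3% of its 50-base stretches shared, mostly with the near-identical Psme2b. Psme4, which encodes a large nuclear activator, had the highest value of all members. It was read at 55.9, 109 and 70.4 CPM in WT and at 118, 96.5 and 126 CPM in KO, so KO 2 lay inside the WT range and the other 2 above it. Its log2 fold change of 0.53 (SE 0.26, 95% interval -0.03 to 1.09) did not pass (edgeR adjusted p = 0.423). Psme3, the nuclear homologue of Psme1, had -0.06 and the inhibitor gene Psmf1 0.12. Psme2b had 0.17 (SE 0.36) on 5.30 to 10.5 CPM.

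Among assembly chaperone genes 6 of 7 lay below 0 and the median was -0.27. Psmg3, which takes part in building the alpha ring (chromosome 5, 139823592 to 139826885, minus strand), was read at 43.9, 48.7 and 58.6 CPM in WT and at 28.9, 42.1 and 30.7 CPM in KO. The groups did not overlap, with KO 2 again nearest to WT. Its log2 fold change was -0.57 (SE 0.23, edgeR adjusted p = 0.349), and 26.8% of its exonic bases overlap the predicted gene Gm26938 on the same strand. Its partner Psmg4 had -0.11 (SE 0.23). Psmg2, which acts at the same step with Psmg1, was read at 40.4, 45.2 and 36.2 CPM in WT and at 48.9, 42.5 and 37.6 CPM in KO, a log2 fold change of 0.08 (SE 0.21), and Psmg1 itself had -0.26. The base chaperones Psmd5, Psmd9 and Psmd10 had -0.32, -0.36 and -0.27.

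**Figure D2:**
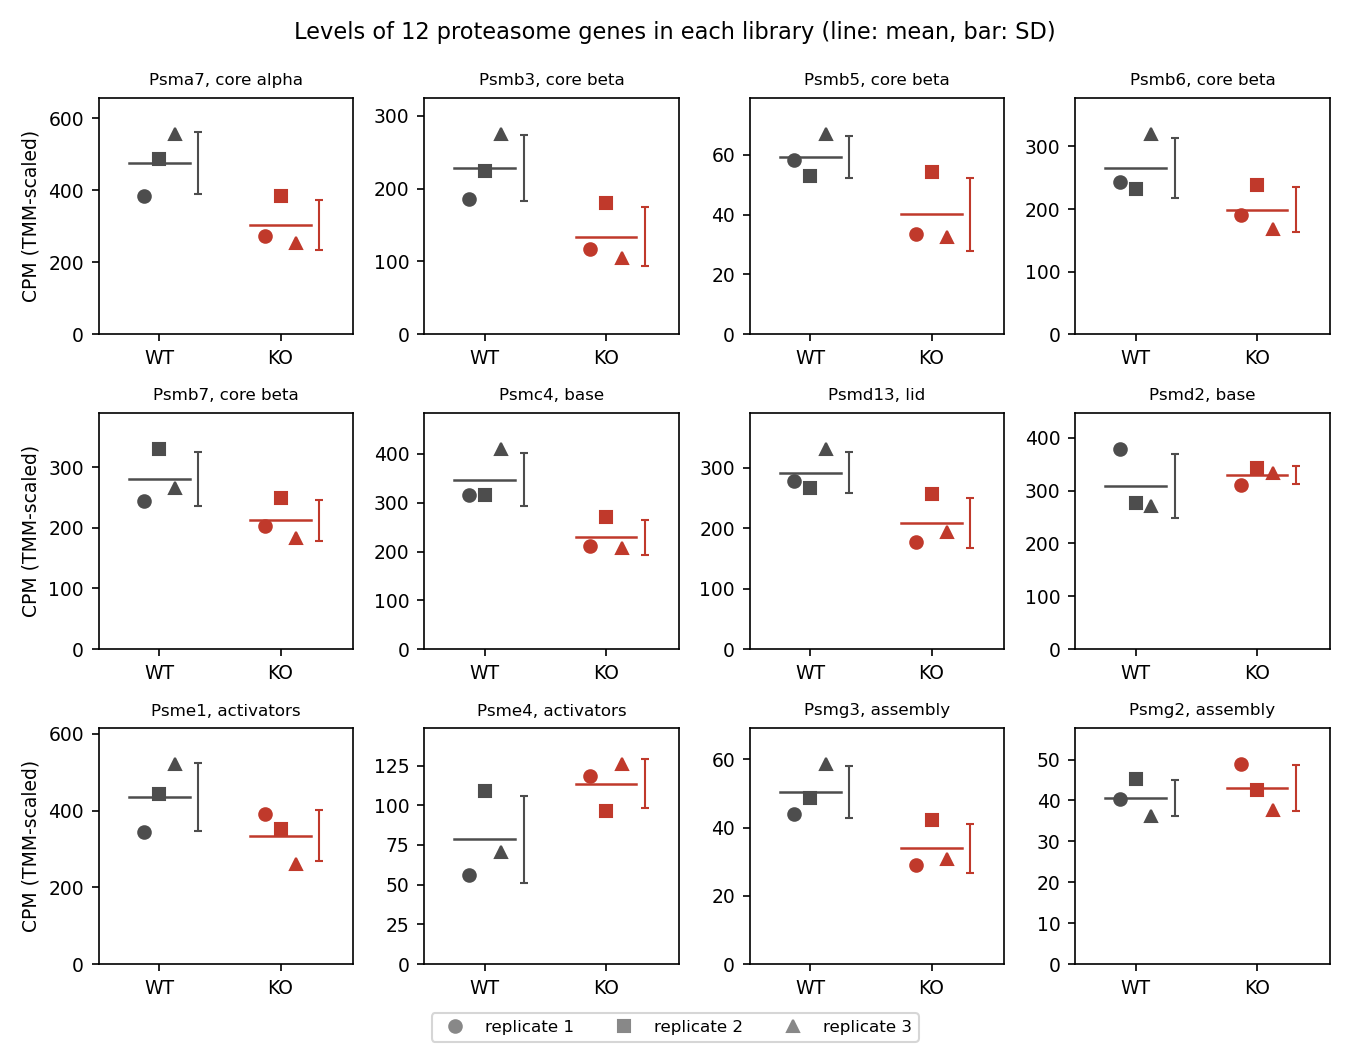
Levels in CPM on TMM-scaled library sizes (y axis, from 0) of 12 proteasome genes in each WT and KO library (x axis); symbols give the replicate number, which does not pair mice, lines the mean and bars the SD. For Psmb5, Psmb6 and Psmb7 the square of KO 2 lies inside or at the WT values, and the other 2 KO libraries lie below them.

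The spread between mice was as large as most of these differences. For 31 of the 44 proteasome genes the difference between group means was smaller than the range of the 3 WT libraries. The share of all genes for which this holds was not computed, so the count does not set proteasome genes apart. The median coefficient of variation was 16.4% in WT and 16.1% in KO. For the beta ring, 4 of 7 genes had a difference at or above the WT range (Psmb2, Psmb3, Psmb4 and Psmb5), and for the alpha ring 1 of 7 did (Psma7). Reads cannot tell fewer transcripts per cell from a changed mix of cells, since each library is a bulk sample.

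Counted by library, KO 3 was the lowest of the 6 for 25 of 44 proteasome genes, whereas it was the lowest for 15.3% of all genes. It lay below all WT libraries for 29 of 44, against 25.7% of all genes. The library labelled KO 1 lay below all WT libraries for 20 of 44, against 27.1% of all genes. KO 2 was inside the WT range for 34 of 44, against 59.9% of all genes. The mean of the core genes, as log2 CPM minus the WT mean, was -0.37 in KO 1, -0.07 in KO 2 and -0.56 in KO 3, and -0.22, 0.20 and 0.02 in WT 1 to WT 3. For base and lid together it was -0.18, 0.01 and -0.33 in KO and -0.09, 0.09 and -0.00 in WT. KO 3 had the highest macrophage marker sum and KO 1 and KO 2 the 2 lowest. Whether macrophages or plasma cells bear on the proteasome values was not tested. Of the 45 members, 32 lay below 0 without KO 3, 40 without KO 1 and 29 without WT 2. Without KO 1 the median by role was -0.25 for the alpha ring, -0.38 for the beta ring, -0.23 for the base, -0.10 for the lid and -0.25 for assembly chaperones. In the same fit Psmb3 had -0.69, Psma7 -0.59, Psmc4 -0.56, Psmb5 -0.46, Psmb6 -0.40, Psmb7 -0.38 and Psme4 0.50.

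**Figure D3:**
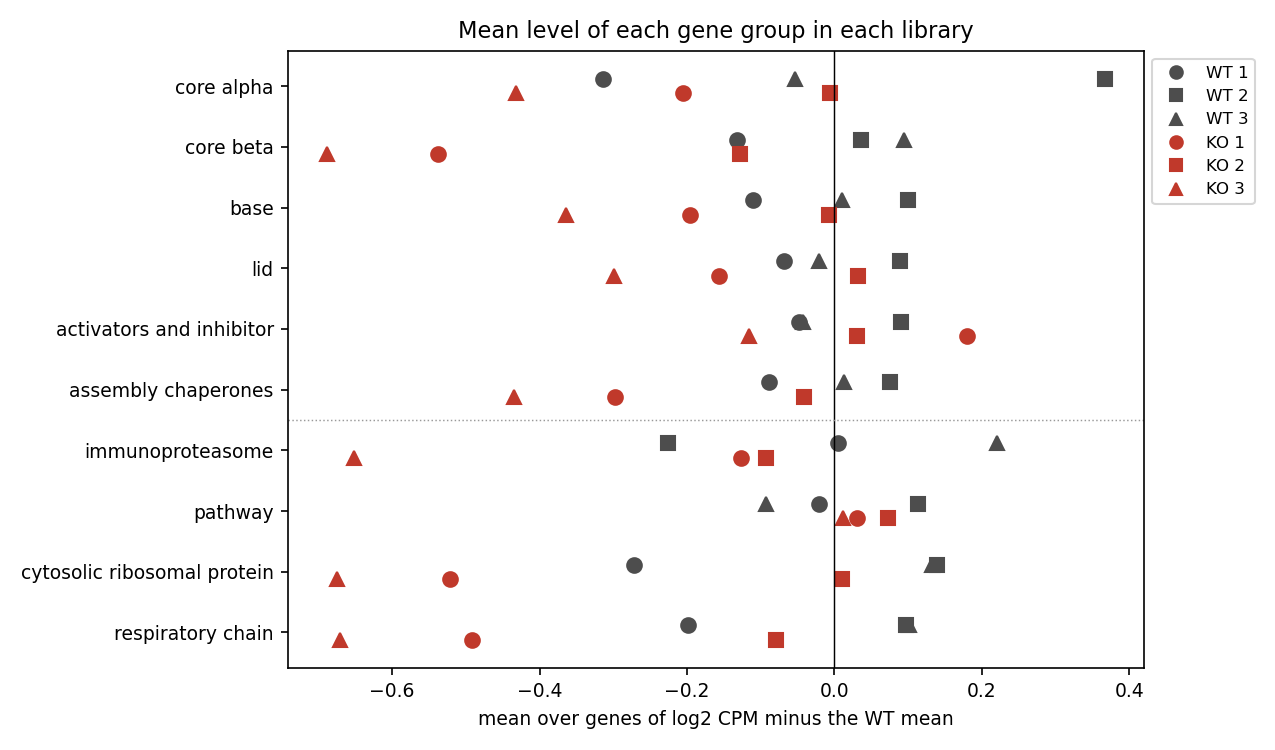
Mean over the genes of each group of log2 CPM minus the WT mean (x axis) in each of the 6 libraries, with proteasome role groups above the dotted line and comparison groups below it. In the beta ring KO 3 is at -0.69, KO 1 at -0.54 and KO 2 at -0.13, and the ribosomal and respiratory genes show the same order of KO libraries.

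Other abundant housekeeping complexes showed the same order of KO libraries. For cytosolic ribosomal proteins the median was -0.42 and 74 of 76 genes lay below 0. For the respiratory chain it was -0.39, with 73 of 76 below 0. Without KO 1 both medians were -0.34. With a trend on length and GC content removed they were -0.15 with 59 of 76 and -0.21 with 60 of 76 below 0. Their means relative to WT were -0.52, 0.01 and -0.68 for ribosomal proteins and -0.49, -0.08 and -0.67 for the respiratory chain in KO 1, KO 2 and KO 3. The medians of these complexes were lower than that of the proteasome genes, and no test of a difference between the lists was made. Of 29 tested genes for ubiquitin, its activation, shuttles, processing enzymes and proteasome regulators, 0 passed the test (edgeR), 16 lay below 0 and the median was -0.02. At an unadjusted p under 0.05 (edgeR), 1 of them was higher and 1 lower, which is 6.9% of the 29, against 12.6% of all genes.

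The 2 highest of that list were Zfand5, whose product binds ubiquitin and the proteasome, and the ubiquitin ligase gene Ube3a (0.55, SE 0.30). Zfand5 was read at 55.7, 45.0 and 32.4 CPM in WT and at 77.0, 63.4 and 94.2 CPM in KO. All its KO values lay above all WT values, with a log2 fold change of 0.82 (SE 0.25) that did not pass (edgeR adjusted p = 0.274). Nfe2l1, whose product NRF1 activates proteasome genes, was read at 93.2, 64.9 and 74.8 CPM in WT and at 73.8, 71.6 and 83.1 CPM in KO, a log2 fold change of -0.03 (SE 0.21). The core assembly factor gene Pomp had -0.12 (SE 0.22) and the ubiquitin receptor gene Adrm1 -0.14 (SE 0.22).

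Transcript length and GC content moved with the difference across the whole table. Genes were put into 5 bins of equal size by exon length. In the bin of shortest genes, up to 1833 bases, the median of all genes was -0.23, and in the bin of longest genes 0.26. Proteasome genes are short, with a median exon length of 1505 bases against 3266 for all tested genes. Of the 44, 26 fall in the bin of shortest genes, where their own median was -0.26. In that bin 23 of these 26 lay below 0, against 72.6% of all genes. In the next bin, up to 2755 bases, all genes had a median of -0.09 and the 9 proteasome genes there one of -0.34. All 9 lay below 0, against 59.7% of all genes in that bin. Psme4, the highest member, is also the longest, at 6491 bases. Across the 44 genes, which share the same 6 libraries, Spearman's rho of log2 fold change was 0.31 with length and -0.45 with GC content, and over all genes 0.39 and -0.37. When a trend on both was removed from each library, the members' median was -0.08, with 32 of 45 below 0. The median of all genes was then 0.02, with 47.9% below 0, and that of the beta ring was -0.15. Assembly chaperones then had the lowest median of the roles, -0.26 with 4 of 7 below 0. Most named genes moved towards 0 with the trend removed. Psma7 moved to -0.26, Psmb5 to -0.15, Psmb6 to -0.13, Psmc4 to -0.37 and Psmb3 to -0.57. Psmd13 moved to -0.27, Psmg3 to -0.35, Psme4 to 0.24, Ube3a to 0.24 and Zfand5 to 0.40. Farther from 0 than before were Psmb7 at -0.43, Psma3 at -0.12, Psmd2 at 0.14, Psmd7 at 0.24, Psmg2 at 0.16 and Psmb9 at 0.20.

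**Figure D4:**
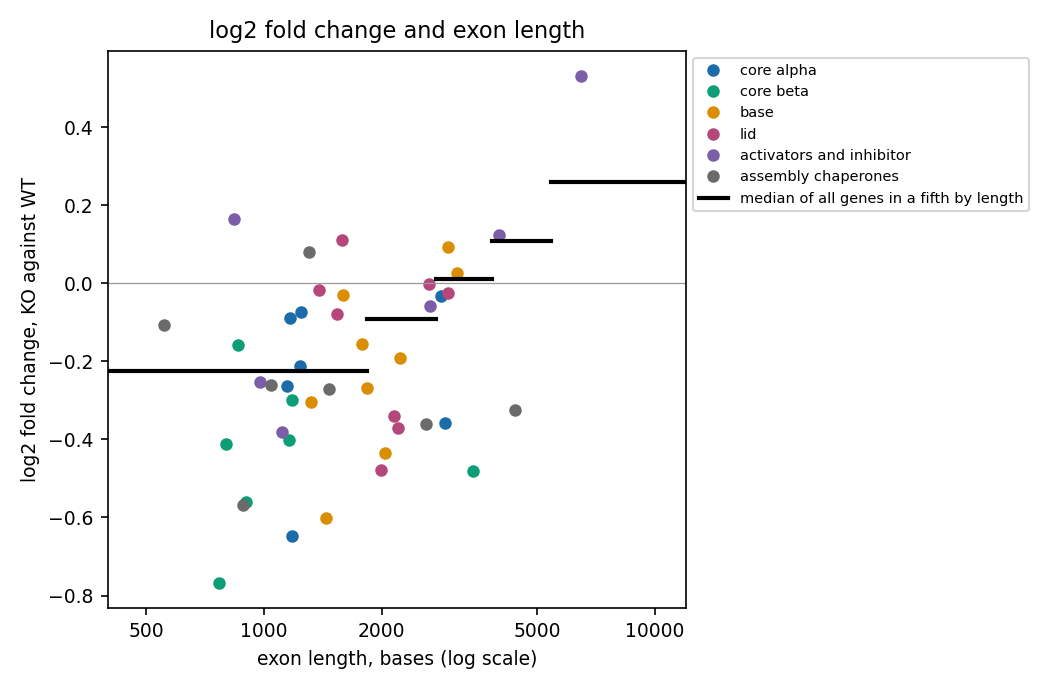
Log2 fold change, KO against WT (y axis), of 44 proteasome genes against exon length in bases (x axis, log scale); points are coloured by role and black bars give the median of all genes in each length bin. The bars climb from -0.23 to 0.26, and 26 proteasome genes sit in the bin of shortest genes.

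Scaling changed the sign for some roles. With library size in place of TMM the median of all genes was 0.13, and on that scale 28 of 45 members lay below 0 with a median of -0.14, while the lid median turned to 0.07. Relative to the median of all genes, the members' median was -0.27 with TMM and -0.28 with library size.

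Levels per kilobase of exon show how unevenly the core genes were represented. Averaged over the 6 libraries, Psma7 had 330 ± 99.8 CPM per kilobase and Psmb4 307 ± 50.1 (SD, n = 6). Psmb6 followed with 291 ± 65.7, and no test of a difference between these genes was made. Psmb7 had 212 ± 44.2, and Psmb5 was the lowest of the beta ring at 55.4 ± 15.4. Psma3 was the lowest of the alpha ring at 34.4 ± 9.38. Length here is the union of a gene's exons over the GENCODE basic transcripts. It was 2846 bases for Psma3 and 1180 for Psma7, but 2911 for Psma2, which had 120 CPM per kilobase. How far these lengths bear on the order of genes was not tested. Psmb5 and Psma3 share 57.1% and 22.0% of their 50-base stretches with other genes, and whether reads were lost to these copies was not tested. Median levels by role were 236 CPM per kilobase for the beta ring, 146 for the alpha ring, 128 for the base, 91.3 for the lid, 56.3 for activators and inhibitor and 32.1 for assembly chaperones. Among the 30 genes with at most 10% of stretches shared, the median log2 fold change was -0.26 and 25 lay below 0.

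The immunoproteasome genes that replace the catalytic subunits did not pass either. Psmb8, the counterpart of Psmb5, had a log2 fold change of -0.28 (SE 0.21), Psmb9, the counterpart of Psmb6, -0.12 (SE 0.24), and Psmb10, the counterpart of Psmb7, -0.43 (SE 0.24). With the length and GC trend removed these were -0.06, 0.20 and -0.04. The ratio of counts within a library does not depend on scaling, and 3 such ratios were computed after the values were seen. They are a description: 3 libraries against 3 cannot give an exact permutation p below 0.1, and no test is drawn on. Psmb9 over Psmb6 was 1.33, 1.31 and 1.33 in WT and 2.03, 1.45 and 1.41 in KO. All KO ratios lay above all WT ratios, with the library labelled KO 1 far above the other KO libraries. Exons of Tap1 on the opposite strand cover 15.7% of the exonic bases of Psmb9. Without a known strand setting, reads of Psmb9 and Tap1 cannot be told apart there, which limits this ratio. Psmb8 over Psmb5 was 14.4, 12.2 and 11.9 in WT and 18.6, 13.6 and 15.6 in KO, with KO 2 inside the WT range. Psmb10 over Psmb7 was 0.804, 0.508 and 0.930 in WT and 0.826, 0.685 and 0.618 in KO, all KO values inside the WT range. Per kilobase, Psmb8 exceeded Psmb5 by 6.55 to 10.2 times in every library, and the copies of Psmb5 noted above limit what this ratio can say.

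**Figure D5:**
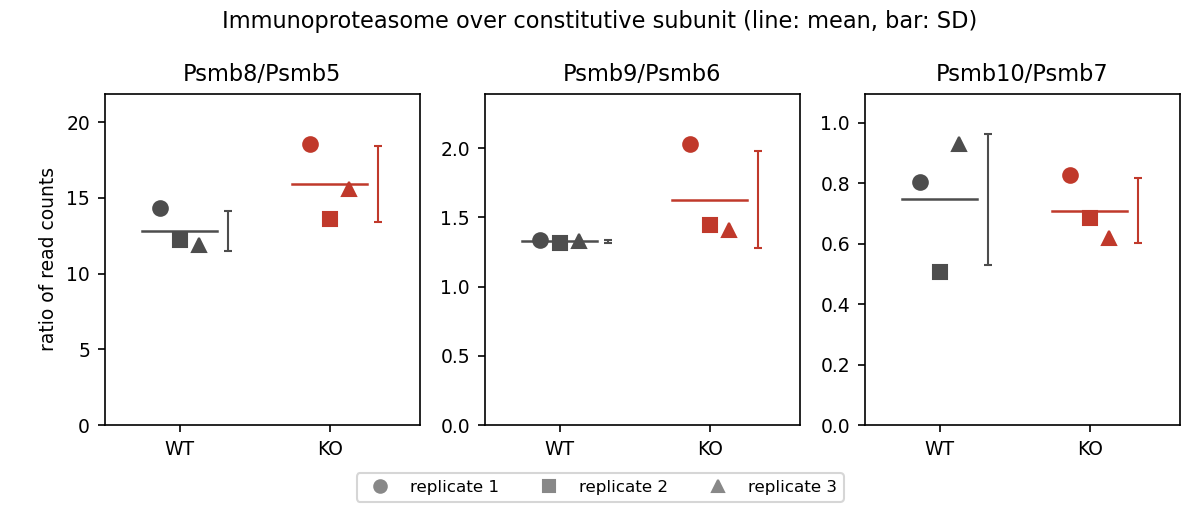
Ratio of read counts of each immunoproteasome gene to the constitutive subunit it replaces (y axis, from 0) in each WT and KO library (x axis); lines are means and bars SD. For Psmb9 over Psmb6 the 3 WT libraries lie between 1.31 and 1.33 and the KO libraries between 1.41 and 2.03.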

How the data were processed

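The authors deposited raw read counts per gene symbol, with a column for each mouse. The submitters' processing notes name CASAVA, STAR 2.5.2, featureCounts 1.5.2 and mm10. Annotation, strandedness and handling of multi-mapping reads were not stated in what was used here. In R 4.3.3, edgeR 4.0.16 was run on the counts (filterByExpr, TMM, robust quasi-likelihood fit on genotype alone). P-values are two-sided and adjusted by Benjamini-Hochberg over all 10926 genes tested, with a threshold of 0.05. The script was also run on simulated counts. These were drawn for each gene separately and without a trend on length or GC content, so that run cannot speak to such a trend. Each SE is the absolute log2 fold change over the root of F, and log2 CPM used a prior count of 2. Lengths and positions came from GENCODE vM21 on the same build, matched by symbol for all 46 members and 98.4% of tested genes. No 2 libraries of a group looked like repeats (chi-square per degree of freedom 14.4 to 50.9). P-values weigh the difference between the groups against the spread between mice within a group. The groups also differ in depth, as given above.

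The alternatives were other scalings, filters and tools (DESeq2 1.42.0, voom in limma 3.58.1), thinning to equal depth, removal of a spline trend on length and GC content, the replicate number as a block, and each library left out in turn. Members and lists were chosen with earlier results of these data known. Named genes were the catalytic subunits, the highest and lowest gene of each role, members with an unadjusted p under 0.05, the immunoproteasome genes, the 2 highest and 2 lowest of the pathway list and Kdm1a. The 2 lowest of that list are not reported here. Other members are given to account for all of them, and Nfe2l1, Pomp and Adrm1 were named beyond the rule, as were the genes in the closing section, after their values were seen.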

Additional observations from a re-analysis of the deposited data

How the results depend on the processing

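No member passed in any of the 17 alternatives, and the members' median log2 fold change stayed below 0 in all 17, from -0.33 without KO 2 to -0.08 with the length and GC trend removed. The core median was below 0 in all 17 as well, whereas the lid median turned above 0 with library size alone (0.07), without WT 2 (0.03) and without KO 3 (0.01). Some named genes changed sign, most of them near 0 in the main comparison and Psme1 from -0.38. Psma3 was 0.0977 with library size alone, 0.0339 with limma-voom, 0.0473 with the replicate block and 0.0310 after thinning, and with 1 library left out it ranged from -0.205 (without WT 1) to 0.378 (without WT 2). With the length and GC trend removed Psmb2 was 0.0973, Psme1 0.0145 and Psmb9 0.197, and 0.0877, 0.0152 and 0.171 with the replicate block added. With 1 library left out Psmb9 ranged from -0.289 (without KO 1) to 0.0335 (without KO 3) and was 0.0333 without WT 3, and Psmg2 ranged from -0.0260 (without KO 1) to 0.165 (without WT 2). Kdm1a did not pass in the main comparison (-1.19, edgeR adjusted p = 0.393). It passed in 1 of the 17 alternatives, without KO 1 (-1.93, edgeR adjusted p = 0.0169). The 9 genes called over the whole table became 122 with DESeq2, 93 without a filter and between 1 and 38 otherwise. Same-numbered mice had correlated deviations for 2 pairs (0.34 and 0.44) and not for the third (-0.05), and not every library correlated best with its own number, so the numbers were not taken to pair mice. With the replicate block the members' median was -0.24 and 0 passed. With these depths and 3 mice per group the median SE was 0.22 on the log2 scale for a member, and even -0.77 (Psmb3) did not pass.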

Other observations

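Some proteasome genes differed more between WT mice than between the group means. Psmc6, an ATPase of the base, varied most, at 73.3, 248 and 129 CPM in WT 1, WT 2 and WT 3, a 3.39-fold range, against 156, 150 and 87.9 CPM in KO. Psmd14, the deubiquitinase gene of the lid, was read at 179, 345 and 232 CPM in WT, and Psma1 at 230, 443 and 258 CPM. In each case WT 2 was highest and WT 1 lowest. The alpha ring mean was 0.37 log2 units above the WT mean in WT 2 and 0.31 below it in WT 1, and the KO libraries lay at -0.20, -0.01 and -0.43. The beta ring spread less among WT mice, from -0.13 to 0.09. Summed counts of the core over those of base and lid were 0.861, 1.08 and 0.967 in WT and 0.873, 0.930 and 0.829 in KO. Psmc3ip, the recombination factor gene that shares the prefix, was read at 27.6, 31.9 and 22.1 CPM in WT and at 25.7, 23.8 and 16.3 CPM in KO, a log2 fold change of -0.31 (SE 0.26).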
